A study of Mus musculus with 4 samples.

Results

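The 45 genes described here encode proteins of the G2 phase and mitosis: cyclins, Cdk1 and mitotic kinases (11 genes), spindle proteins (10), kinetochore, centromere and chromosome proteins (11), checkpoint and anaphase-promoting complex proteins (7) and cytokinesis proteins (6). They were taken by mouse symbol from a count table of 56239 genes. All 45 were found, and all 45 were among the 15070 genes with enough counts to be tested. Messenger RNA was sequenced from sorted CD4+CD8+ double-positive (DP) thymocytes of C57BL/6 mice in 4 libraries. The 2 KO libraries came from mice with floxed Chaf1b alleles and Cd4-cre, a transgene that puts Cre recombinase under control of Cd4. The 2 WT libraries came from mice with the same floxed alleles and no Cre, so Cre itself was carried in the KO group alone. The labels give neither the age nor the number of the mice, and which exons lie between the loxP sites is not stated in the sources used here. Values are CPM, counts scaled to library size, after scaling by TMM factors, and in each group the value of replicate 1 is given before that of replicate 2.

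Chaf1b is a subunit of CAF-1, the chaperone that places new histones on DNA behind the replication fork. Entry into mitosis is driven by Cdk1 bound to A and B cyclins. Wee1 and Pkmyt1 hold Cdk1 off by phosphorylation, and the Cdc25 phosphatases remove that phosphate. Once the spindle has attached every kinetochore, the checkpoint releases Cdc20, the anaphase-promoting complex degrades the B cyclins and securin, and the cell divides. Transcripts of these genes are made mainly in G2 and are low in resting cells. In the thymus, large DP blasts divide after assembly of a T-cell receptor beta chain, whereas most DP thymocytes are small resting cells.

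Library totals ran from 21068760 to 27369874 counts. Chaf1b itself had 12.2 and 14.8 CPM in the KO libraries, against 27.9 and 31.7 CPM in the WT libraries, a log2 fold change of -1.14 ± 0.16 (SE, KO over WT) with an adjusted p of 0.267 by edgeR's quasi-likelihood test. The groups did not overlap, and with the replicate number as a term the adjusted p was 0.0172 (edgeR). Xist, the RNA of the inactive X chromosome, had 47301 and 12 counts in the KO libraries and 47368 and 8 counts in the WT libraries, and the Y-linked Ddx3y had 14 and 3311 in KO and 2 and 5384 in WT. Replicate 1 was therefore female and replicate 2 male in both genotypes, and each pair of equal number compares KO with WT within a sex. Each sex was a single library per genotype, so a difference between the pairs cannot be assigned to sex rather than to a library. KO replicate 1 stood apart from the other libraries. It had 3.30% of its counts in mitochondrially encoded genes, against 2.03% in KO replicate 2 and 1.33% and 1.45% in the WT libraries, and 4.94% in ribosomal protein genes, against 3.60% in KO replicate 2 and 2.86% and 2.91% in the WT libraries. Cd4 had 2066 and 1896 CPM in KO and 1814 and 1887 CPM in WT, and Cd8a 2762 and 3368 CPM in KO and 3424 and 3507 CPM in WT. The 10 DP markers summed to 20504 and 17556 CPM in KO and 17682 and 17190 CPM in WT, and the 10 markers of double-negative and immature stages to 147 and 125 CPM in KO and 119 and 120 CPM in WT. The 8 mature single-positive markers summed to 313 and 274 CPM in KO and 240 and 225 CPM in WT, and the 6 NK and gamma-delta T markers to 151 and 121 CPM in KO and 110 and 93.3 CPM in WT (Ncr1 and Klrd1 at 0 in all 4 libraries), so both sums were higher in both KO libraries. Among the markers of other cell types, Gzma had 54.5 and 31.2 CPM in KO and 22.4 and 17.6 CPM in WT (adjusted p = 0.0194, edgeR with the replicate number as a term), and Pdgfrb 7.63 and 4.03 CPM in KO and 1.69 and 1.66 CPM in WT (adjusted p = 0.0258). Without that term the adjusted p was 0.267 for each (edgeR). Of the other lists, 8 epithelial and stromal markers to between 151 and 180 CPM, 8 macrophage and granulocyte markers to between 7.06 and 10.6 CPM (S100a8 and Elane at 0), and 6 B-cell markers to between 1.94 and 4.23 CPM. Liver transcripts, 8 on the list, summed to 410 and 9.07 CPM in KO and 390 and 84.8 CPM in WT. Of these, Ttr had 8.42 and 0.602 CPM in KO and 15.4 and 4.41 CPM in WT. It passed, lower in KO, with the replicate number as a term (adjusted p = 0.0428, edgeR), and its groups overlapped. The part of these differences in the results below was not tested.

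Promoters of G2/M genes are known for 2 elements. The cell cycle genes homology region (CHR) binds the MuvB complex, which represses in resting cells as part of DREAM and activates in G2 together with B-Myb and FoxM1, and CCAAT boxes bind NF-Y. RefSeq promoter windows of 300 bases, from 250 before to 50 after the annotated start on GRCm38.p6, were found for 37 of the 45 genes. The CHR was searched as TTTGAA or TTTAAA and the NF-Y box as CCAAT, on both strands; TTTAAA reads the same on both, and a base could count for more than 1 motif. The following 4 windows are shown because Cenpf and Cdc25b had the largest positive and Cks2 the largest negative differences of the genes with windows and non-overlapping groups, apart from Mki67, and because Ccnb1, cyclin B1, is the partner that defines the mitotic kinase. Each is written 5′ to 3′ on the strand of its gene, with CHR and CCAAT matches in capitals (ATTGG is a CCAAT on the other strand).
Cenpf: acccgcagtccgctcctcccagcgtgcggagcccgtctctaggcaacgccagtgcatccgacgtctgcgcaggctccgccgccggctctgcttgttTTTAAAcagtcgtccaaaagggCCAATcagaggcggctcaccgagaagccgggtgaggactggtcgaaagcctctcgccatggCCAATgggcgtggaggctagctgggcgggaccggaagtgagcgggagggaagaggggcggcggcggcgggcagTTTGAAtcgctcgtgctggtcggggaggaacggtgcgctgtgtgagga
Cdc25b: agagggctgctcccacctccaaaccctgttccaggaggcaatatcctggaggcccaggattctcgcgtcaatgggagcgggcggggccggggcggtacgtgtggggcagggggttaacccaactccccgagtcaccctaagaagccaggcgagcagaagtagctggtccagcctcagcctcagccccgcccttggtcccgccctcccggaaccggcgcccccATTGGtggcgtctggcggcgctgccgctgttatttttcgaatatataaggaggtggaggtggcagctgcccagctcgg
Cks2: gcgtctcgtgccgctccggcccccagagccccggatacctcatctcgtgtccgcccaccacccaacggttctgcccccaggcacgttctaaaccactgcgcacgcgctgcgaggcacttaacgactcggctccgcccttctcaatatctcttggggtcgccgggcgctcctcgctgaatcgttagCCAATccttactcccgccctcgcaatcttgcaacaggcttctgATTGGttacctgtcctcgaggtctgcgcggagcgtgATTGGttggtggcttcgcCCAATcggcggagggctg
Ccnb1: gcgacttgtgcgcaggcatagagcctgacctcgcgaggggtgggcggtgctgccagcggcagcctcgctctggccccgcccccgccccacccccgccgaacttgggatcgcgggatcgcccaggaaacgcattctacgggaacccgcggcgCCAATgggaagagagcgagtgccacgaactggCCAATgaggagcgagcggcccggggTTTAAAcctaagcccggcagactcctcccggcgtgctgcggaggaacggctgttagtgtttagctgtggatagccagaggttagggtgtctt
The Cenpf window lies at chr1:189688037-189688336 on the minus strand, Cdc25b at chr2:131186698-131186997 on the plus strand, Cks2 at chr13:51644982-51645281 on the plus strand and Ccnb1 at chr13:100786437-100786736 on the minus strand.

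Counting the annotated start as position 1, with the base before it as -1, Ccnb1 held CCAAT boxes at -99 and -67 and a CHR at -42. Cenpf held a CHR at -154, CCAAT boxes at -132 and -71, and a second CHR at 3. Cks2 held 4 CCAAT boxes, at -65, -22, 15 and 33, and Cdc25b held 1, at -28. Neither Cks2 nor Cdc25b held either of the 2 CHR forms searched, and other forms were not searched.

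Over the 40 windows of the 37 genes, 80.0% held a CHR in either form, against 27.6% of the 32851 windows in the table. A CCAAT box was in 77.5% of the mitotic windows and 37.4% of all windows, and both elements were in 70.0% and 10.7%. Of 48 CHR matches in the mitotic windows, 34 (70.8%) began within 50 bases of the start, against 25.1% of the 11715 matches in all windows. The same share for CCAAT matches was 34.7% of 72 in the mitotic windows and 28.2% of 17707 in all. More of the CHR matches thus began near the start in the mitotic windows than in all windows, a description that was not tested. The log2 fold changes of the 29 genes with a CHR had a median of 0.01 and ran from -0.31 to 0.86, and those of the 8 with a window and neither CHR form had a median of 0.12 and ran from -0.54 to 0.53. The ranges overlapped over most of their width, and this difference was not tested.

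**Figure D1:**
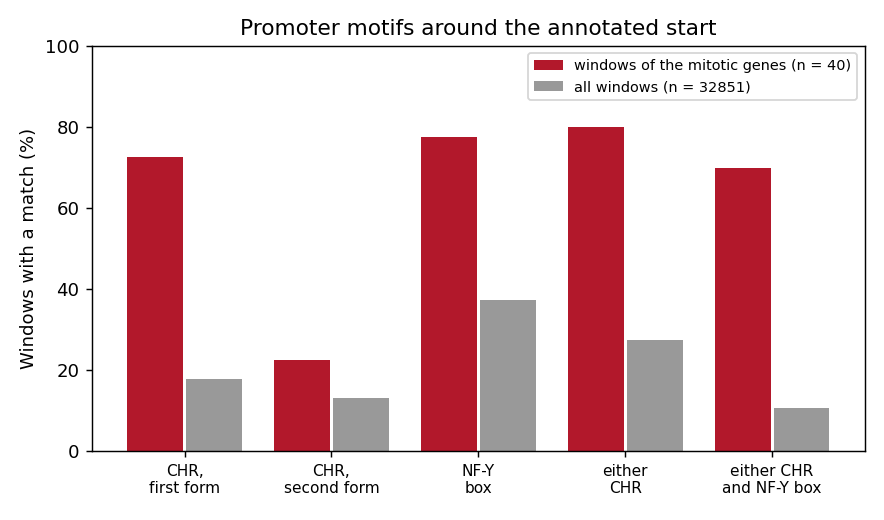
Percent of promoter windows that hold each motif (y axis) for the 40 windows of the mitotic genes and for all 32851 RefSeq windows. The first CHR form is TTTGAA (72.5% of mitotic windows, 17.9% of all) and the second TTTAAA (22.5% and 13.2%), the NF-Y box is CCAAT, and the last pair of bars counts windows with both elements.

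None of the 45 genes passed an adjusted p of 0.05 (edgeR quasi-likelihood test with Benjamini-Hochberg adjustment over all 15070 genes) in either direction. The lowest adjusted p among them was 0.267 by edgeR. The background was as sparse: 1 of all tested genes was called, 0.00664%. With the replicate number, and so sex, as a term, 483 genes passed (3.21%; 152 or 1.01% higher and 331 or 2.20% lower in KO) and again 0 of the 45 did, the lowest adjusted p being 0.0538 for Cenpf by edgeR. At an unadjusted p under 0.05, 3 of the 45 were higher in KO (Cdc25b, Melk, Cenpf) and 3 lower (Cks2, Cdk1, Kif23), beside 16.8% of all tested genes (8.14% higher and 8.69% lower). DESeq2 called 1 of the 45, Cdc25b, higher in KO and 0 lower, where 1.14% of all tested genes were called higher and 1.83% lower. limma-voom called 0. In bulk RNA, fewer or more dividing cells and a change of transcript per cell cannot be told apart.

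Both KO libraries lay above both WT libraries for 13 of the 45 genes, where 27.9% of all tested genes did, and below for 11, where 28.4% did. The other 21 overlapped, against 43.7% of all tested genes. The median log2 fold change was 0.07, against -0.00 over all tested genes, and the genes ran from -0.54 for Cks2 to 0.86 for Cenpf. For 29 of the 45 it was under 0.2 in size, and the median SE was 0.12. The genes whose groups did not overlap were thus divided between higher and lower values in KO, in shares close to those of all tested genes. Exons of 15 of the 45 genes overlap those of another gene, by up to 29.3% of the exon length (Kif20a with Cdc23), and fragments over both were not counted.

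The sizes differed between the 2 pairs. In the female pair the median absolute log2 CPM difference of the 45 was 0.22 and the genes ran from -0.73 to 1.25. In the male pair it was 0.09 and they ran from -0.35 to 0.44. Over all tested genes the medians were 0.37 and 0.18. The 2 WT libraries differed from each other by a median of 0.06 and at most 0.21, and the 2 KO libraries by a median of 0.18 and at most 0.97. A difference above 0.5 in size was seen for 8 genes among the females and 0 among the males. The sign was positive in both pairs for 19 of the 45, negative in both for 14 and opposite for 12, beside 5345, 5533 and 4187 of all tested genes. KO replicate 1 was the highest of the 4 libraries for 27 of the 45 genes and the lowest for 10, beside 5470 and 5765 of all tested genes. Without KO replicate 1, the median log2 fold change of the 45 was -0.00 and that of Cdc25b was 0.45. Without KO replicate 2, the median of the 45 was 0.11.

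**Figure D2:**
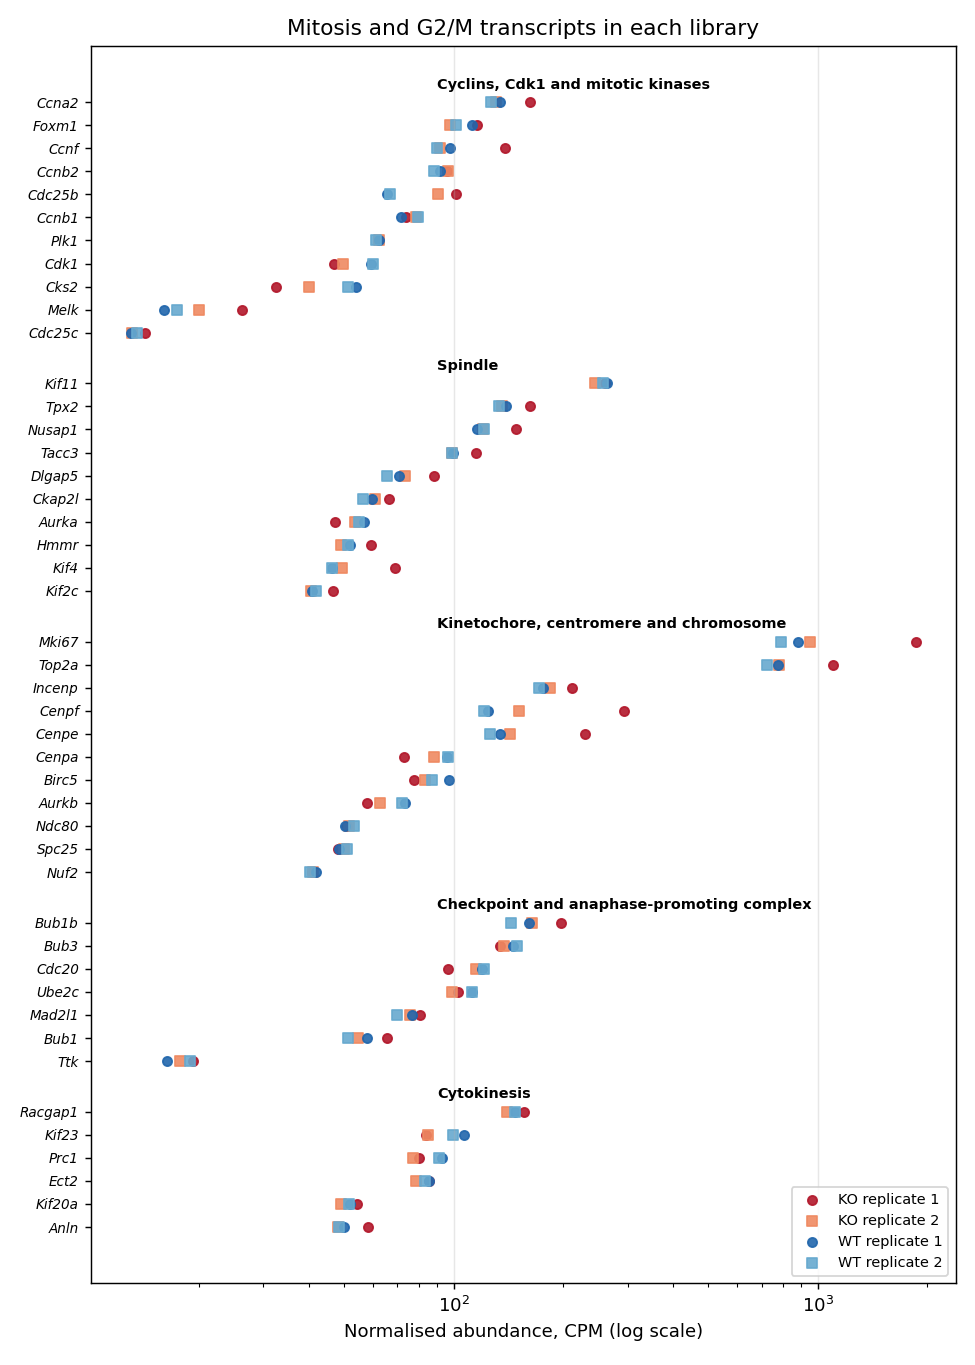
Abundance of each of the 45 transcripts in CPM (x axis, log scale) in the 2 KO and 2 WT libraries, grouped by role and ordered by mean CPM within a role. Most transcripts sit at nearly one place in all libraries, and KO replicate 1 stands to the right for Mki67, Top2a, Cenpf and Cenpe.

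**Figure D3:**
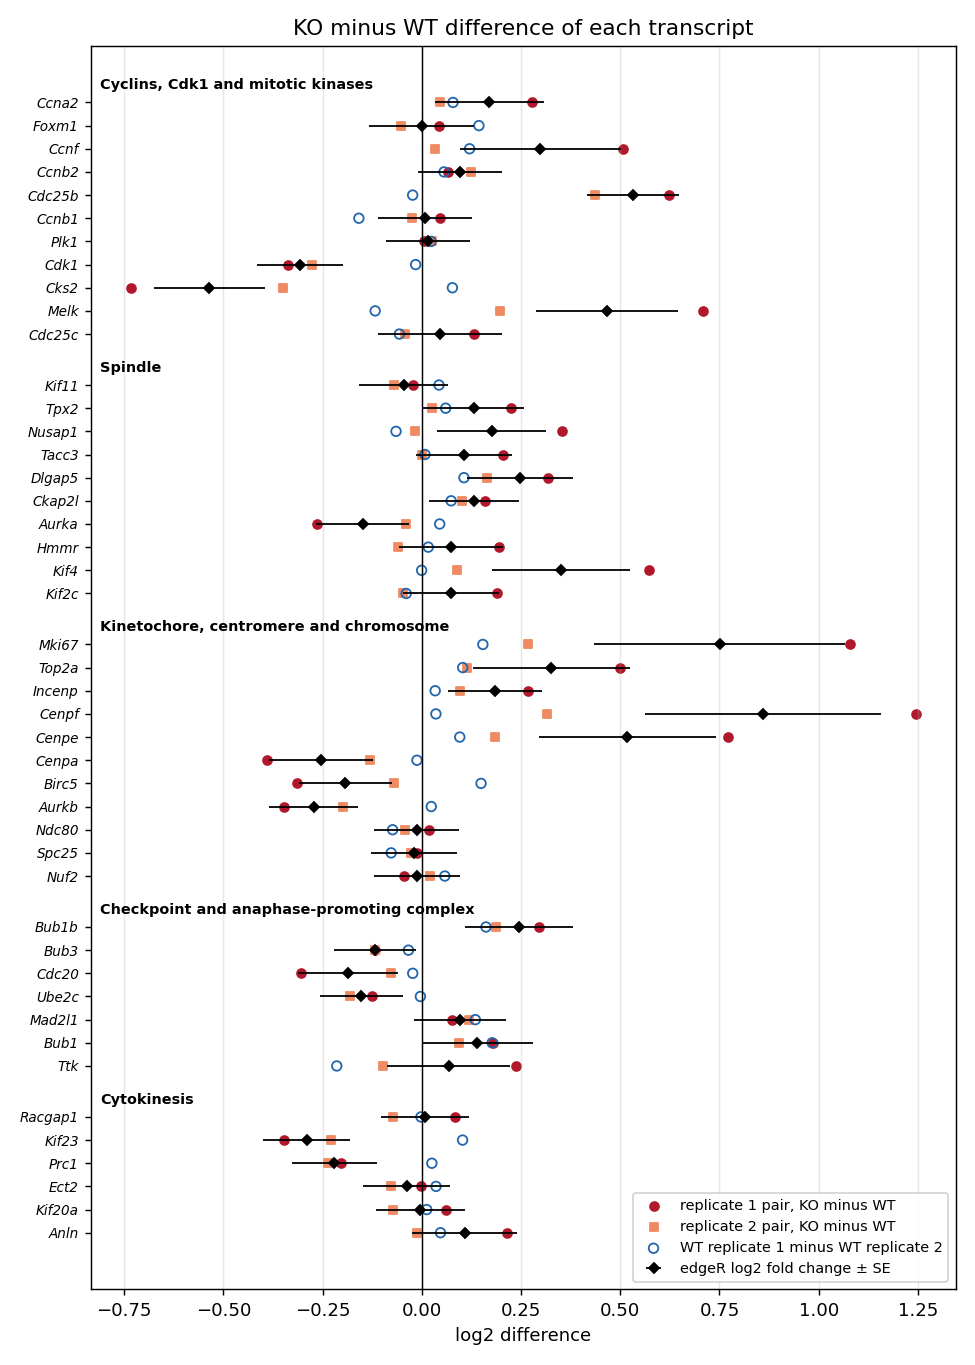
Log2 differences of each transcript: KO minus WT in the pair of replicate 1 (filled circles) and of replicate 2 (squares), WT replicate 1 minus WT replicate 2 (open circles), and the edgeR log2 fold change with its SE (diamonds). The replicate 1 pair runs from -0.73 to 1.25 and the replicate 2 pair from -0.35 to 0.44, while the WT libraries differ by at most 0.21.

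Among the cyclins, Cdk1 and mitotic kinases, the B cyclins lay close to WT. Cdc25b was above WT, and Cdk1 and Cks2 below, in both pairs, without passing the test. Ccnb1 had 74.0 and 78.5 CPM in KO libraries, against 71.6 and 79.9 CPM in WT libraries. Ccnb2, cyclin B2, had 96.0 and 96.1 CPM in KO, against 91.6 and 88.1 CPM in WT (log2 fold change 0.10 ± 0.11, adjusted p = 0.649, edgeR). Plk1, the kinase that promotes mitotic entry and spindle assembly, had 62.5 and 62.3 CPM in KO, against 62.2 and 61.2 CPM in WT. The Ccnb1 groups overlapped, and the other 2 genes differed by less than 0.2. Ccnb1 has processed pseudogenes, among them Ccnb1-ps with 99.2% identity over 1287 bases, so its counts are uncertain; Ccnb1-ps had between 21 and 41 counts per library.

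Ccna2, cyclin A2, which acts in S phase and G2, had 162 and 131 CPM in KO libraries, against 134 and 126 CPM in WT libraries (log2 fold change 0.17 ± 0.14, adjusted p = 0.533, edgeR). Ccnf, the F-box cyclin of an SCF ubiquitin ligase, had 139 and 91.9 CPM in KO, against 97.6 and 89.8 CPM in WT (0.30 ± 0.20, adjusted p = 0.463). Foxm1, the transcription factor that activates many G2/M genes, had 116 and 97.8 CPM in KO, against 112 and 101 CPM in WT (-0.00 ± 0.13, adjusted p = 0.998). All 3 overlapped between groups, and for Ccna2 and Ccnf the KO replicate 1 value was the one that stood above the rest. Without that library the log2 fold change was 0.01 for Ccna2, -0.12 for Foxm1 and -0.02 for Ccnf.

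Cdc25b, the phosphatase that activates Cdk1 at mitotic entry, had 101 and 90.2 CPM in KO libraries, against 65.6 and 66.7 CPM in WT libraries, means of 95.7 ± 7.72 and 66.1 ± 0.742 CPM (SD, n = 2 each). The groups did not overlap, and the pair differences in log2 CPM were 0.62 (female) and 0.44 (male). Its log2 fold change was 0.53 ± 0.12 with an adjusted p of 0.267 by edgeR, 0.0541 with the replicate number as a term and 0.0295 by DESeq2. The gene (chromosome 2, 131186949 to 131198497, plus strand) shares 2.47% of its exon length with Spef1, and fragments over both genes were not counted. Of the 45, Cdc25b had the largest difference in the male pair.

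Cks2, a small protein that binds Cdk1 and aids recognition of its phosphorylated substrates, had 32.4 and 40.1 CPM in KO libraries, against 53.9 and 51.1 CPM in WT libraries (log2 fold change -0.54 ± 0.14, adjusted p = 0.267, edgeR). Cdk1, the mitotic kinase, had 46.9 and 49.5 CPM in KO, against 59.3 and 60.0 CPM in WT (-0.31 ± 0.11, adjusted p = 0.269, edgeR). The groups did not overlap for either gene, and the pair differences were -0.73 and -0.35 for Cks2 and -0.34 and -0.28 for Cdk1. The processed pseudogene Gm15452 is identical to Cks2 over 240 bases, so fragments of Cks2 could be lost or placed there; it had 100 and 110 counts in KO and 157 and 184 counts in WT. Melk, a kinase of dividing cells, had 26.2 and 19.9 CPM in KO, against 16.0 and 17.4 CPM in WT (0.47 ± 0.18, adjusted p = 0.285, edgeR). In all, 4 of the 11 genes of this group had both KO libraries above both WT libraries (Ccnb2, Cdc25b, Plk1, Melk), 2 below and 5 overlapping, with a median log2 fold change of 0.05.

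Among the spindle genes, KO replicate 1 was the highest library for 8 of 10 and the other 3 libraries lay close together. Tpx2, which targets Aurora A to spindle microtubules, had 162 and 135 CPM in KO libraries, against 139 and 133 CPM in WT libraries (log2 fold change 0.13 ± 0.13, adjusted p = 0.608, edgeR). Nusap1, which bundles spindle microtubules, had 148 and 119.9 CPM in KO, against 116 and 121 CPM in WT (0.18 ± 0.14, adjusted p = 0.518). Tacc3, which stabilises kinetochore fibres, had 115 and 99.0 CPM in KO, against 99.5 and 98.9 CPM in WT (0.11 ± 0.12, adjusted p = 0.657). In each case KO replicate 2 lay between the 2 WT values, and without KO replicate 1 the log2 fold changes were 0.00 for Tpx2, 0.02 for Nusap1 and 0.00 for Tacc3.

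Kif11, the kinesin that pushes spindle poles apart, was the most abundant spindle transcript by CPM and had 260.1 and 244 CPM in KO libraries, against 264 and 256 CPM in WT libraries (log2 fold change -0.05 ± 0.11, adjusted p = 0.852, edgeR). Kif4, a chromosome-bound kinesin on the X chromosome, had 69.0 and 49.4 CPM in KO, against 46.4 and 46.4 CPM in WT (0.35 ± 0.17, adjusted p = 0.342, edgeR). Its WT values were alike in the female and the male library, and the pair differences were 0.57 and 0.09. Kif4 shares 15.1% of its exon length with Pdzd11. Of the 10 spindle genes, 3 had both KO libraries above both WT libraries (Kif4, Dlgap5, Ckap2l), 1 below (Aurka) and 6 overlapping. Their median log2 fold change was 0.12, and the median pair difference was 0.20 (female) and -0.01 (male). Without KO replicate 1 the median log2 fold change was 0.00.

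The kinetochore, centromere and chromosome genes held the largest differences and also the widest split. Cenpf, a very large kinetochore and microtubule-binding protein, had 294 and 151 CPM in KO libraries, against 124 and 121 CPM in WT libraries. Cenpe, the kinesin that carries chromosomes to the spindle equator, had 229 and 143 CPM in KO, against 134 and 125 CPM in WT. Mki67, the Ki-67 protein that coats mitotic chromosomes and marks proliferating cells, had 1862 and 953 CPM in KO, against 882 and 792 CPM in WT. For all 3 the KO libraries lay above both WT libraries, with KO replicate 1 far above KO replicate 2.

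The log2 fold change was 0.86 ± 0.30 for Cenpf (adjusted p = 0.268, edgeR), with pair differences of 1.25 and 0.31. It was 0.75 ± 0.32 for Mki67 (adjusted p = 0.301), with pair differences of 1.08 and 0.27, and 0.52 ± 0.22 for Cenpe (adjusted p = 0.306), with 0.77 and 0.19. Without KO replicate 1, the log2 fold changes of Cenpf and Mki67 were 0.30 and 0.19. Top2a, the topoisomerase that untangles sister chromatids, had 1098 and 783 CPM in KO libraries, against 777 and 723 CPM in WT libraries (0.33 ± 0.20, adjusted p = 0.415, edgeR). KO replicate 2 of Top2a stood only just above WT replicate 1, and without KO replicate 1 its log2 fold change was 0.07.

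The passenger complex that corrects kinetochore attachments had subunits on both sides of WT. Incenp, its scaffold, had 211 and 183 CPM in KO libraries, against 176 and 172 CPM in WT libraries (log2 fold change 0.18 ± 0.12, adjusted p = 0.435, edgeR). Its kinase Aurkb had 57.7 and 62.8 CPM in KO, against 73.4 and 72.2 CPM in WT (-0.27 ± 0.11, adjusted p = 0.299), and its subunit Birc5, survivin, had 77.8 and 83.2 CPM in KO, against 96.8 and 87.2 CPM in WT (-0.19 ± 0.12, adjusted p = 0.414). Incenp lay above WT and the other two below, without overlap in any of them and without passing the test, and without KO replicate 1 the log2 fold change of Incenp was 0.08. Cenpa, the histone H3 variant that marks centromeres, had 73.1 and 88.1 CPM in KO, against 95.7 and 96.5 CPM in WT (-0.25 ± 0.13, adjusted p = 0.355, edgeR). The 3 genes of the Ndc80 complex, which holds microtubules at the kinetochore (Ndc80, Nuf2 and Spc25), had log2 fold changes between -0.02 and -0.01 and overlapped. Of the 11 genes, 5 lay above WT in both libraries, 3 below and 3 overlapped, with a median log2 fold change of -0.01. That median was 0.02 without KO replicate 1.

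Checkpoint genes and activators of the anaphase-promoting complex had log2 fold changes between -0.19 and 0.25. Bub1b, the BubR1 protein of the mitotic checkpoint complex, had 197 and 164 CPM in KO libraries, against 161 and 144 CPM in WT libraries (log2 fold change 0.25 ± 0.14, adjusted p = 0.379, edgeR). Bub3, its partner at kinetochores, had 134 and 137 CPM in KO, against 145 and 149 CPM in WT (-0.12 ± 0.10, adjusted p = 0.564). The groups did not overlap for either, and the signs were opposite. Cdc20, the activator that the checkpoint restrains, had 96.4 and 115 CPM in KO, against 119 and 121 CPM in WT (-0.19 ± 0.13, adjusted p = 0.463, edgeR). Ube2c, the ubiquitin-conjugating enzyme of the complex, had 103 and 99.1 CPM in KO, against 112 and 112 CPM in WT (-0.15 ± 0.10, adjusted p = 0.469). Without KO replicate 1 the log2 fold change was -0.06 for Cdc20 and 0.11 for Bub1b. Both Cdc20 and Ube2c lay below WT without overlap, and Ube2c shares 22.8% of its exon length with Tnnc2. Of the 7 genes, 1 lay above WT in both libraries, 3 below and 3 overlapped, and the median log2 fold change was 0.07.

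Of the cytokinesis genes, 0 of 6 had both KO libraries above both WT libraries, 2 lay below and 4 overlapped, with a median log2 fold change of -0.02. Kif23, the kinesin of centralspindlin at the midzone, had 83.8 and 84.7 CPM in KO libraries, against 107 and 99.4 CPM in WT libraries (log2 fold change -0.29 ± 0.11, adjusted p = 0.283, edgeR). Prc1, which bundles midzone microtubules, had 80.4 and 77.2 CPM in KO, against 92.7 and 91.0 CPM in WT (-0.22 ± 0.11, adjusted p = 0.334). In both genes the difference was present in both pairs, -0.35 and -0.23 for Kif23 and -0.20 and -0.24 for Prc1, and exceeded the spread between the 2 libraries of each genotype. Prc1 shares 11.1% of its exon length with Rccd1.

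Racgap1, the partner of Kif23 in centralspindlin, had 156 and 140.0 CPM in KO libraries, against 147 and 147 CPM in WT libraries (log2 fold change 0.01 ± 0.11, adjusted p = 0.976, edgeR), with pair differences of 0.08 and -0.07. Ect2, the exchange factor that centralspindlin recruits to activate RhoA, had 85.2 and 78.9 CPM in KO, against 85.3 and 83.2 CPM in WT (-0.04 ± 0.11, adjusted p = 0.877, edgeR). For Racgap1 the KO values stood on either side of the WT values, and for Ect2 KO replicate 1 was among them and KO replicate 2 below. Neither gene showed the difference of Kif23 and Prc1 in both pairs.

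Levels of different genes were compared per length, as FPKM from the deposited exon length of each gene. Means over the 4 libraries ran from 2.73 FPKM for Cdc25c, 3.66 FPKM for Ttk and 5.64 FPKM for Anln to 60.4 FPKM for Cdc20, 60.7 FPKM for Ccnb2, 64.1 FPKM for Cks2, 93.8 FPKM for Top2a and 112 FPKM for Mki67, with a median of 18.3 FPKM. Mki67 was the highest in KO replicate 1 at 185 FPKM and had 94.8 FPKM in KO replicate 2, against 87.6 and 78.7 FPKM in the WT libraries.

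The 45 genes together held 0.660% of the counts of KO replicate 1 (exact 95% interval 0.657 to 0.663%) and 0.556% of KO replicate 2 (0.553 to 0.560%), against 0.555% of WT replicate 1 (0.552 to 0.558%) and 0.539% of WT replicate 2 (0.536 to 0.541%). These intervals cover counting error only. Mki67 and Top2a together held 41.2% of these counts in KO replicate 1 and 32.0% in KO replicate 2, against 30.5% in WT replicate 1 and 29.1% in WT replicate 2. The other 43 genes held 0.388% and 0.378% of the counts in KO, against 0.386% and 0.382% in WT. As a share of all counts, the 43 genes therefore overlapped between the genotypes. On other scales KO replicate 1 was the highest for them too. With mitochondrially encoded and ribosomal protein genes taken out of the total, all 45 genes held 0.719% and 0.590% in KO, against 0.580% and 0.563% in WT, and the 43 held 0.423% and 0.401% in KO, against 0.403% and 0.399% in WT. In TMM-scaled CPM the 45 summed to 7187 and 5424 CPM in KO, against 5441 and 5201 CPM in WT, and the 43 to 4227 and 3688 CPM in KO, against 3782 and 3686 CPM in WT.

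**Figure D4:**
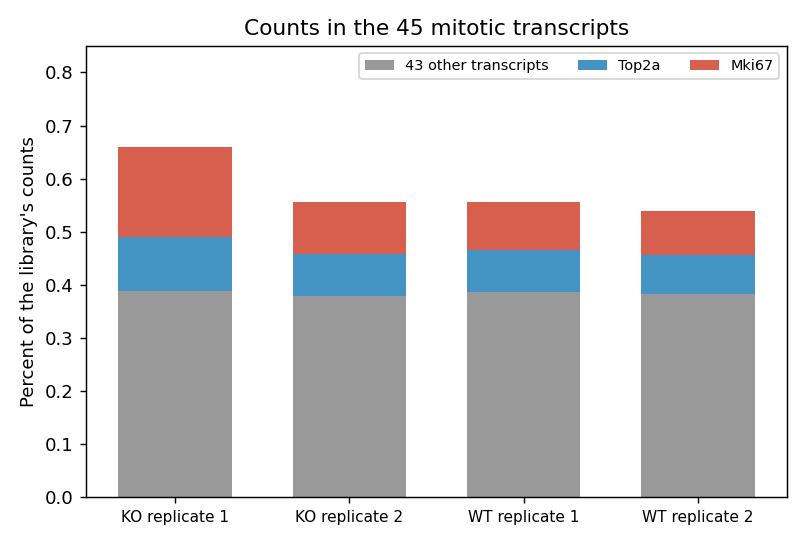
Percent of each library's counts in the 45 transcripts (y axis from 0), split into Mki67, Top2a and the 43 others. The grey part stands between 0.378% and 0.388% in all 4 libraries, and the total is 0.660% for KO replicate 1 and between 0.539% and 0.556% for the rest.

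The KO minus WT difference went with the length of the coding sequence. Over the 17 genes with under 1500 coding bases the median log2 fold change was -0.12, with 6 positive values, 1 gene above WT in both libraries and 9 below, where 28.4% of the 6448 tested genes of that length lay above and 29.8% below. Over the 15 genes of 1500 to 2500 coding bases it was 0.07, and over the 9 of 2500 to 4000 it was 0.11. For the 4 of 4000 or more (Top2a, Cenpe, Cenpf and Mki67) it was 0.63, and all 4 lay above WT. Among all 11836 tested genes with a coding transcript, the median was -0.02 under 1500 coding bases and 0.19 over the 820 genes of 4000 or more, of which 42.4% lay above WT in both libraries and 13.0% below.

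Across the 45 genes, Pearson's r between the log2 of the coding length and the log2 CPM difference was 0.75 for the female pair (Spearman's rho 0.62). For the male pair it was 0.55 (0.43). Without the 4 longest genes r was 0.61 and 0.39 over 41 genes. The difference between the 2 KO libraries had r = 0.79 with log2 coding length, and that between the 2 WT libraries r = 0.19. Over the 50 other mitotic genes r was 0.29 for females and 0.19 for males, and 0.36 for the difference between the WT libraries. Over all 11836 genes r was 0.11 for females and 0.02 for males, and over 45 S-phase genes it was 0.63 and 0.52. These r describe genes measured in the same libraries, which share depth and are not independent replicates. The GC content of the transcripts had r = -0.15 for females and -0.00 for males. KO replicate 1, which entered the first pair, was also the library with the highest mitochondrial and ribosomal protein shares, and whether these move the length relation was not tested.

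**Figure D5:**
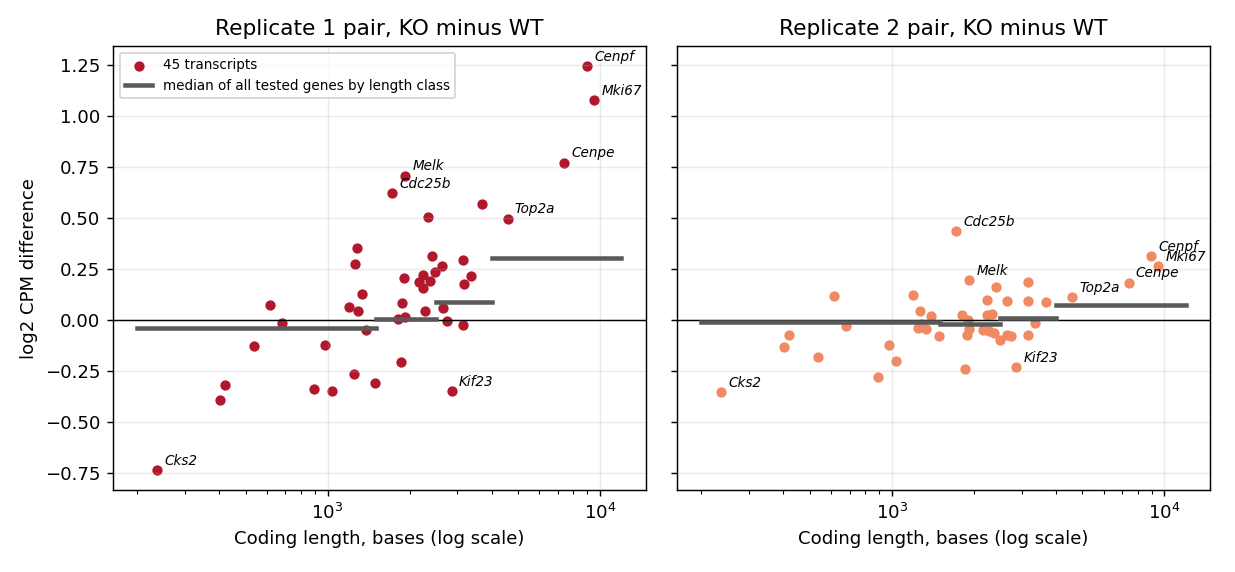
Log2 CPM difference, KO minus WT (y axis), against coding length in bases (x axis, log scale) for the 45 transcripts in the replicate 1 pair (left) and the replicate 2 pair (right), with bars for the median of all tested genes in each length class. Cenpf and Mki67 stand at 1.25 and 1.08 on the left and at 0.31 and 0.27 on the right, above the medians of 0.30 and 0.07 of all genes as long, and Cks2 is the shortest and lowest in both.

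Other genes of the pathway were counted in the same fits. Over all tested genes, 27.9% lay above WT in both libraries, 28.4% below and 43.7% overlapped. At an unadjusted p under 0.05 (edgeR), 8.14% of all tested genes were higher and 8.69% lower. Of 50 other mitotic genes, 0 passed in either edgeR fit or in DESeq2, and 3 higher and 4 lower met an unadjusted p under 0.05. Of these 50, 10 lay above WT in both libraries, 19 below and 21 overlapped, and the median log2 fold change was -0.08, against 0.07 for the 45. Hmgb2, a chromatin protein of proliferating cells, had 649.5 and 742 CPM in KO libraries, against 801 and 786 CPM in WT libraries (-0.19 ± 0.15, adjusted p = 0.513, edgeR). Hjurp, the chaperone that loads Cenpa, had 516 and 528 CPM in KO, against 583 and 560.2 CPM in WT (-0.13 ± 0.13, adjusted p = 0.607). Both lay below WT without overlap, and without KO replicate 1 the log2 fold changes were -0.09 and -0.11.

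Of 8 condensin subunits, which compact chromosomes, 3 lay above WT, 1 below and 4 overlapped (median 0.14). Smc4 had 906 and 802 CPM in KO libraries, against 772 and 749 CPM in WT libraries (0.17 ± 0.15, adjusted p = 0.564, edgeR). Ncapd2 had 543 and 415 CPM in KO, against 403 and 417 CPM in WT (0.22 ± 0.17, adjusted p = 0.498). Without KO replicate 1 the log2 fold change was 0.08 for Smc4 and 0.02 for Ncapd2. Of 16 subunits of the anaphase-promoting complex, 5 lay above, 8 below and 3 overlapped (median -0.11). The most abundant, Anapc5 and Anapc1, were among those above, with log2 fold changes of 0.19 ± 0.14 (adjusted p = 0.503, edgeR) and 0.23 ± 0.11 (adjusted p = 0.342), and with 0.07 and 0.17 without KO replicate 1. None of these 24 genes passed in either edgeR fit or in DESeq2, and 0 met an unadjusted p under 0.05 (edgeR).

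The regulators that bind the CHR and E2F sites of these promoters passed in neither edgeR fit, and 2, both lower in KO, met an unadjusted p under 0.05. Of these 19 MuvB, DREAM and E2F genes, 2 lay above WT, 8 below and 9 overlapped (median -0.11). E2f2, an activating E2F, had 615 and 501 CPM in KO libraries, against 597 and 605 CPM in WT libraries (-0.11 ± 0.15, adjusted p = 0.731, edgeR), and without KO replicate 1 its log2 fold change was -0.26. Rbbp4, a histone-binding subunit shared by MuvB and CAF-1, had 384 and 375 CPM in KO, against 349 and 345 CPM in WT (0.13 ± 0.12, adjusted p = 0.575). E2f4, a repressive E2F of DREAM, was the one gene of this list that DESeq2 called (lower in KO, adjusted p = 0.0350). It had 132 and 168 CPM in KO libraries, against 231 and 218 CPM in WT libraries, a log2 fold change of -0.58 ± 0.14 (adjusted p = 0.267, edgeR; 0.0646 with the replicate number as a term).

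Of 16 inhibitors of mitotic entry and phosphatases, 3 lay above WT, 9 below and 4 overlapped (median -0.12). The shares of all tested genes were 27.9%, 28.4% and 43.7%. The log2 fold changes of the 16 ran from -1.16 to 0.99. At an unadjusted p under 0.05 (edgeR), 0 of the 16 were higher and 5 lower in KO, beside 8.14% and 8.69% of all tested genes. In the fit with the replicate number 1 passed, lower in KO, where 2.20% of all tested genes did. It was Pkmyt1, the membrane-bound kinase that holds Cdk1 inactive, with 15.3 and 22.7 CPM in KO libraries, against 35.6 and 33.7 CPM in WT libraries. Its log2 fold change was -0.87 ± 0.20 with an adjusted p of 0.267 without that term and -0.89 with 0.0336 with it (edgeR), and DESeq2 gave an adjusted p of 0.0233. Both KO values stood below both WT values, with pair differences of -1.22 and -0.57. Cdc25b, which opposes Pkmyt1 on Cdk1, stood above WT in both pairs without passing in either edgeR fit, and DESeq2 gave it an adjusted p of 0.0295. Cdk1 itself and Cks2 stood below WT in both pairs. Whether these differences are related was not tested.

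Of 45 S-phase genes, 20 lay above WT, 8 below and 17 overlapped (median 0.08), beside 27.9%, 28.4% and 43.7% of all tested genes. At an unadjusted p under 0.05 (edgeR), 7 of the 45 were higher and 0 lower in KO, beside 8.14% and 8.69% of all tested genes. With the replicate number as a term 1 passed, higher in KO, where 1.01% of all tested genes did. It was Pola1, the polymerase subunit of the complex that starts DNA synthesis on primers, with 73.2 and 54.6 CPM in KO libraries, against 41.5 and 40.0 CPM in WT libraries (log2 fold change 0.65 ± 0.16, adjusted p = 0.267; with the term 0.64, adjusted p = 0.0425, edgeR). DESeq2 gave it an adjusted p of 0.0417. Both KO values stood above both WT values, and the pair differences were 0.82 and 0.45.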

How the data were processed

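RNA-seq counts of 2 KO and 2 WT libraries were analysed. The submitters' processing notes name the build GRCm38 and the tools HISAT2, DESeq2, featureCounts 1.6.4, Trim Galore 0.5.0 and FastQC. Per the file headers, featureCounts 1.6.3 made the deposited counts, which are unscaled fragments over exons of Ensembl 98, paired, without strand and without options for multi-mapped or multi-gene fragments, so antisense and near-identical genes are uncertain. The deposited gene length in bases (exon union, per the file headers) served for FPKM.

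Symbols and coding lengths (of the transcript with the longest coding sequence) came from GENCODE M21, an earlier annotation; 55154 of 56239 IDs matched (98.1%), the rest holding at most 0.0408% of a library's counts. Promoter windows came from RefSeq on GRCm38.p6. In R 4.3.3, edgeR 4.0.16 (filterByExpr, TMM, quasi-likelihood F test, Benjamini-Hochberg, threshold 0.05) was fitted to 15070 genes with genotype as the only term (2 residual degrees of freedom). SE is the log2 fold change over the square root of F. Pair differences are taken between log2 CPM values (prior count 2). Alternatives were DESeq2 1.42.0, limma-voom 3.58.1, other scalings, no low-count filter, robust dispersion, replicate number as a term and each library left out. A count of 0 allows 3 counts, 0.110 to 0.142 CPM. The edgeR fits with and without the replicate number were checked on simulated counts, and DESeq2 and limma-voom were not. The simulated counts held no difference between replicate numbers and took their dispersions from the fit with that term. They therefore cannot show how the fit without the term performs on these libraries.

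The 45 genes and all lists were chosen with earlier results of these data known. Named genes were the 4 most abundant of each role, the 3 largest differences each way among those with non-overlapping groups, any member past a threshold and, of each other list, those past a threshold or the 2 most abundant; Ccnb1, Plk1, Melk, Kif4, Cenpe, Cenpa, Aurkb, Birc5, E2f4 and genes in counts of 5 or fewer were added after their values were seen. Overlap of exons was taken from the exon positions deposited with the counts. Near-identical copies (at least 95% identity over 150 bases) were looked up in GENCODE M21. The labels do not say whether replicates came from separate mice, other than by their sex as read from Xist and Ddx3y, and p-values cover only the spread among these 4 libraries.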

Additional observations from a re-analysis of the deposited data

Results flagged for a closer look

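Racgap1 was picked out because its 2 pairs moved in opposite directions by more than counting error. Its log2 CPM difference, KO minus WT, was 0.0835 for the females and -0.0719 for the males. The difference between the pairs was not tested.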

How the results depend on the processing

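With the replicate number as a replicate block, 0 of the 45 genes were called and 152 genes of all were called higher and 331 lower; Chaf1b stood at -1.15 (adjusted p = 0.0172). Deviations of equal-numbered libraries from their group means had a correlation of 0.472 over all genes, and the labels name no shared source. Without the low-count filter (26019 genes), 4 of the 45 were called higher (Cdc25b, Cenpe, Cenpf, Mki67) and 1 lower (Cks2), and 627 and 838 of all genes, with Chaf1b at -1.15 (adjusted p = 4.77e-07). DESeq2 called 1 of the 45 higher, 172 genes of all higher and 276 lower, with Chaf1b at -1.14 (adjusted p = 1.86e-04). With library totals in place of TMM factors the median of the 45 was -0.017, beside -0.08 for all genes. Leaving out 1 library gave 0 to 14 of the 45 higher and 0 to 6 lower, 1 to 2518 of all genes higher and 0 to 2630 lower, and Chaf1b between -1.30 and -1.01; the highest counts came without KO replicate 2, and with KO replicate 1 left out 171 genes were higher and 349 lower. The log2 fold change of Foxm1 turned to 0.00495 with DESeq2 size factors, 0.00501 in DESeq2 and ranged between -0.12 and 0.11 with 1 library left out. That of Racgap1 turned to -0.077 with library totals, -0.059 with totals without mitochondrially encoded genes and, with 1 library left out, ranged between -0.066 and 0.079. With 1 library left out Ccnf ranged between -0.023 and 0.56, Ect2 between -0.090 and 0.012 and E2f2 between -0.26 and 0.028, the lowest without KO replicate 1 and the highest without KO replicate 2. The causes were not tested. Over 33 single genes other than Chaf1b, 352 values under the alternatives kept their direction and side of the threshold, 34 passed it and 10 turned. With 2 libraries a group, differences near the median SE of 0.12 could not be resolved. Much larger ones also went uncalled in the fit with genotype alone, where Chaf1b, at -1.14, had an adjusted p of 0.267 (edgeR). That 0 of the 45 passed therefore does not show that they were unchanged.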
